A study of Mus musculus with 21 samples.

Results

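The genes described here drive and brake the mitotic cell cycle. They are the 146 protein-coding rows of the deposited count table that carry the KEGG cell cycle pathway, out of 78317 gene rows, after 9 of the 155 rows with that pathway were left out by name (Cdkn1a, Cdkn1c, Mdm2, Ep300, Crebbp, and genes of the Myc and Hdac families). RNA was measured in E14 cells, a line of mouse embryonic stem cells (ES cells), in 7 groups of 3 libraries. Cells given pyridoxine at 20 µM (the treatment the labels call vitamin B6, here VB6) were collected at days 3, 5 and 7, cells given vehicle were collected on the same days, and ES cells form the seventh group. The labels name no genetic change in any group and do not say how differentiation was started. They also leave unsaid whether replicate libraries are separate cultures, so p-values measure the spread between these libraries, which may be technical. The title of the series names endoderm differentiation as its question.

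A cell passes from G1 into S phase when D- and E-type cyclins and their kinases inactivate the RB family and free the E2F factors, whose targets include the genes that license and copy DNA. Cyclins A and B with CDK1 then carry it into mitosis, the spindle checkpoint holds it until the chromosomes are attached, and the anaphase-promoting complex (APC/C) ends mitosis by destroying cyclins and securin. Mouse ES cells are known for a short G1 phase, which lengthens as they differentiate. The members were sorted by role into 11 lists, with Atrx and Ddx11 in none of them.

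Of the 146 members, 144 passed the filter on low counts and had a count in every library. Ccnb3 (a B-type cyclin of the germ line) and Wee2 (an oocyte kinase that inhibits CDK1) did not pass, and no library held more than 0.626 CPM of either. CPM here are counts scaled to library size with TMM factors, per 1e6 counts. Library totals ran from 15882380 to 21629730 counts with a median of 17972485, and the members took 1.71 to 2.05% of them. The share was 2.01 to 2.05% in ES cells, 1.94 to 1.96% with VB6 and 1.93 to 1.95% with vehicle at day 3, 1.72 to 1.77% with VB6 and 1.95 to 1.97% with vehicle at day 5, and 1.77 to 1.83% with VB6 and 1.71 to 1.75% with vehicle at day 7. Summed TPM of 9 pluripotency markers was 719 to 732 with vehicle at day 7 and 8759 to 10205 in ES cells, and that of 6 visceral endoderm and hepatocyte markers was 2563 to 2682 with vehicle at day 7 and 6.26 to 9.90 in ES cells. In bulk libraries such as these, fewer cells of a type and less RNA per cell cannot be told apart.

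Fragments were short in all libraries of 2 groups. The fragment length derived from the deposited values was 260 to 275 nt in the VB6 day 7 libraries and 220 to 237 nt in the vehicle day 5 libraries, against 303 to 315 nt in the other 15. Ribosomal protein genes took 3.30 to 3.53% and 3.42 to 3.73% of counts in those 2 groups and 5.43 to 7.39% elsewhere. Short fragments therefore coincided with vehicle at day 5 and with VB6 at day 7, and length and treatment cannot be told apart at those days. A second fit, called the corrected fit, took out, library by library, the trend of counts with GC content and with length. Comparisons that use neither group are vehicle day 3 against ES, vehicle day 7 against vehicle day 3, VB6 day 5 against VB6 day 3 and VB6 day 3 against vehicle day 3, and they are described first.

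Promoter sequences of 5 members are shown because E2F sites and CHR are known elements of G1/S and G2/M promoters. They were taken from RefSeq windows on GRCm38.p6, the assembly behind mm10, which exist for 117 of the 146 members. The E2F sites searched were TTTCCCGC, TTTCGCGC, TTTGCCGC and TTTGGCGC on both strands, where neighbouring matches may overlap. They were found in 8 of 18 licensing genes with a window (44.4%), 4 of 7 RB and E2F genes (57.1%) and 22 of 117 members (18.8%), against 626 of 27025 windows of all genes (2.32%). The cell cycle genes homology region (CHR), searched as TTTGAA and TTCGAA, was found in 7 of 11 spindle checkpoint genes (63.6%), 35 of 117 members (29.9%) and 5254 of 27025 windows (19.4%). The windows of all genes were not filtered by gene type or expression, whereas the members are protein-coding, so the shares have unlike backgrounds. A match is a string of letters and not a shown binding site. Members with an E2F match went both ways: in vehicle day 7 against vehicle day 3, 5 of 22 with a match were higher and 12 lower (median log2 fold change -0.18), against 28 and 45 of 93 without one (-0.12). In VB6 day 5 against VB6 day 3 the medians were -0.18 with an E2F match and -0.18 without. For CHR, in vehicle day 7 against vehicle day 3, 6 of 35 members with a match were higher and 22 lower (median -0.33). Without one, 27 of 80 were higher and 35 lower (-0.032). The CHR medians were -0.25 and -0.13 in VB6 day 5 against VB6 day 3, and 0.15 and -0.013 in vehicle day 3 against ES cells. These values come from the fit without the correction, at adjusted p under 0.05. Of all genes tested, 67.4% were called in vehicle day 7 against vehicle day 3, and 33.1% were called lower. The differences between members with and without a match were not tested. The Cdk1 window also held 1 E2F match. Of the genes printed, Mcm5, Mcm6 and Cdc6 were lower with vehicle at day 7 than at day 3, and Rbl1 and Cdk1 were higher. The stretches printed here, each of 120 bases read 5′ to 3′ along the gene's strand and placed upstream of the RefSeq start site, show the matches in capitals: E2F sites in Mcm6 (chr1:128359706-128359825, minus strand), Mcm5 (chr8:75109349-75109468, plus strand), Cdc6 (chr11:98908001-98908120, plus strand) and Rbl1 (chr2:157204535-157204654, minus strand), and CHR in Cdk1 (chr10:69352913-69353032, minus strand).
Mcm6: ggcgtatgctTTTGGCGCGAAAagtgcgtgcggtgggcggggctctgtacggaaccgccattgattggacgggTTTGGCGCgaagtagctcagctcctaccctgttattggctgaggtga
Mcm5: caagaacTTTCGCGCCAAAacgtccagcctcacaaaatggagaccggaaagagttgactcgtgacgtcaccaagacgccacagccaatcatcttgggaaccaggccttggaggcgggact
Cdc6: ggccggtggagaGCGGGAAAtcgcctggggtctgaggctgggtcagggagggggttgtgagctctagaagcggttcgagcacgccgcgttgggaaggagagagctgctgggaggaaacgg
Rbl1: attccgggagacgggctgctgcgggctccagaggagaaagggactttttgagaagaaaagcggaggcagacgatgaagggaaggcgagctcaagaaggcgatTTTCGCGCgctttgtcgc
Cdk1: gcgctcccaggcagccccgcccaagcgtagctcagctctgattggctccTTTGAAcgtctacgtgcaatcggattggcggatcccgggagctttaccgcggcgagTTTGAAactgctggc
In Mcm6 and in Mcm5 a pair of E2F matches on opposite strands overlap to form 1 capital run. By the GENCODE gene positions the Cdc6 stretch lies inside the gene and the Cdk1 stretch overlaps its start, since those starts lie further upstream than the RefSeq ones.

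By day 3 with vehicle, D-type cyclins, pocket proteins and E2F factors stood at other levels than in ES cells, and about as many members rose as fell. In vehicle day 3 against ES cells, 56 members were higher and 55 lower at a Benjamini-Hochberg adjusted p under 0.05 in edgeR's quasi-likelihood test, and 64.9% of all 18901 genes tested were called in this comparison. The median member differed by 0.012 on the log2 scale and the median gene tested by 0.011. The corrected fit had 48 higher and 65 lower (70.3% of all genes), with 5 members called in the direction opposite to the main fit. The balance depended on scaling too. By library totals alone 38 were higher and 65 lower, and on the log2(TPM + 1) scale 28 higher and 63 lower. Of all genes called in those settings, 43.9% and 41.8% were higher.

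**Figure D1:**
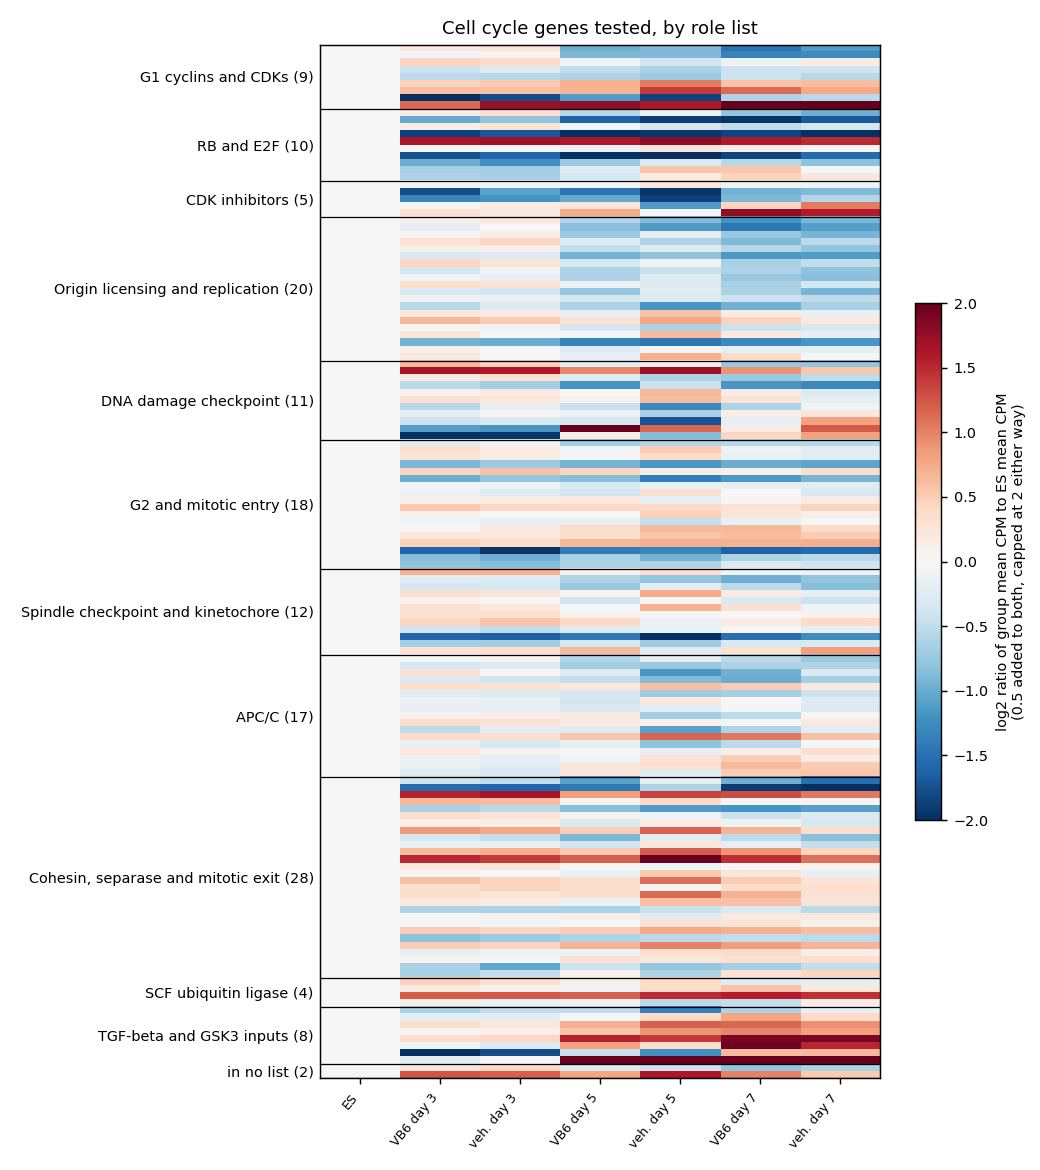
Each row is 1 of the 144 members tested, grouped by role list with the number of genes in parentheses and sorted within a list by the vehicle day 7 to day 3 difference. Colour is the log2 ratio of the group's mean CPM to the ES mean, with 0.5 CPM added to both; at day 7 most of the TGF-beta list is red and most of the licensing list is blue.

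The D-type cyclins, which start the inactivation of RB, moved in different directions. Ccnd3 (mm10 chr17:47505051-47599691, plus strand) had 79.6, 96.6 and 94.1 CPM in the vehicle day 3 libraries, against 352, 284 and 294 CPM in the ES libraries. Ccnd2 (chr6:127125162-127152193, minus strand) had 19.8, 21.6 and 22.6 CPM in the vehicle day 3 libraries, against 6.07, 5.80 and 6.35 CPM in the ES libraries. The libraries of the groups did not overlap for either gene, and the tests called both: Ccnd3 fell by 1.78 ± 0.090 (log2 fold change ± SE, edgeR adjusted p = 4e-14) and Ccnd2 rose by 1.81 ± 0.10 (adjusted p = 2.31e-13). Ccnd1 averaged 55.2 ± 4.89 CPM with vehicle at day 3 and 46.7 ± 3.29 CPM in ES cells (SD, n = 3 each). Per unit of length, the order in ES cells was Ccnd3 at 237 ± 38.0 TPM, Ccnd1 at 18.2 ± 1.26 TPM and Ccnd2 at 1.94 ± 0.144 TPM (SD, n = 3).

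Among their kinases and the E-type cyclins the differences were smaller. Cdk4, a partner of the D-type cyclins, rose at day 3 with vehicle (385 ± 6.28 CPM, against 298 ± 8.44 CPM in ES cells), and Cdk2, the partner of cyclin E, fell (86.0 ± 3.79 against 128 ± 3.27 CPM in ES cells, SD, n = 3 each). Ccne1 did not pass the test, at 159 ± 5.89 CPM with vehicle at day 3 and 153 ± 8.54 CPM in ES cells. Its paralogue Ccne2 rose by 0.61 ± 0.088. Cdk6, the other partner of the D-type cyclins, averaged 27.3 ± 0.638 CPM with vehicle at day 3 and 18.8 ± 1.69 CPM in ES cells.

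Of the 10 RB and E2F members, 6 fell and 3 rose by day 3. All 3 pocket proteins fell: Rbl2 had 11.1, 11.1 and 10.8 CPM in the vehicle day 3 libraries, against 35.0, 35.3 and 40.1 CPM in the ES libraries. Those ranges did not overlap, and the log2 fold change was -1.74 ± 0.12 (edgeR adjusted p = 1.11e-11). Rbl1 fell by 1.25 ± 0.073 and Rb1 by 0.68 ± 0.10. E2F factors went both ways, with E2f1 lower (49.2 ± 2.64 CPM, against 86.8 ± 3.64 CPM in ES cells) and E2f3 higher (59.5 ± 3.72 CPM, against 18.1 ± 0.544 CPM in ES cells, SD, n = 3 each). E2f3, an activating factor, rose by 1.72 ± 0.065 (edgeR adjusted p = 2.21e-16).

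No CDK inhibitor of the 5 passed as higher at day 3. Cdkn2c and Cdkn2d, both inhibitors of CDK4 and CDK6, fell by 1.28 ± 0.28 and 1.24 ± 0.10. Cdkn2b averaged 2.42 ± 0.425 CPM with vehicle at day 3 and 2.08 ± 0.367 CPM in ES cells, and did not pass. By library totals 3 of the 5 inhibitors fell, and in the corrected fit 3 fell and 1 rose.

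Licensing and mitotic genes went both ways over the same step. Of 20 licensing and replication members, 7 rose and 5 fell, with a median of -0.0043. In the corrected fit 6 rose and 8 fell. The helicase subunit Mcm3 rose by 0.43 ± 0.068 and Mcm6 fell by 0.26 ± 0.060. Cdc45, which joins the MCM ring to form the active helicase, fell to 52.8 ± 4.22 CPM with vehicle at day 3, against 106 ± 7.69 CPM in ES cells, and Dbf4, the activator of the firing kinase, rose by 0.53 ± 0.046. Of 18 tested G2 and mitotic entry members, 9 fell and 6 rose. Ccnb2, a B-type cyclin, fell by 0.96 ± 0.054 and Cdc25c, a phosphatase that activates CDK1, by 0.87 ± 0.080, and Ccna1, a cyclin A known from the male germ line, fell to 0.353, 0.361 and 0.263 CPM with vehicle at day 3, against 2.41, 3.19 and 2.47 CPM in ES cells. The vehicle day 3 values of Ccna1 rest on few counts, since 3 counts give 0.139 to 0.189 CPM in a library.

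Checkpoint and chromosome genes held some of the larger shifts by day 3. Atm, the kinase that signals DNA breaks, had 104, 96.4 and 103 CPM with vehicle at day 3, against 29.5, 38.3 and 30.6 CPM in ES cells, and rose by 1.62 ± 0.072 (edgeR adjusted p = 4.02e-15). Chek1, a kinase of the replication checkpoint, fell by 0.70 ± 0.064 and Gadd45b, a stress-induced growth arrest gene, by 1.98 ± 0.14. Mad2l2, known for translesion synthesis and break repair besides its inhibition of the APC/C, fell by 1.66 ± 0.085, and Aurkb, the chromosomal passenger kinase, by 0.69 ± 0.059. Stag2 (a cohesin subunit), Cdc14a (a phosphatase) and Cul1 (the scaffold of the SCF ubiquitin ligase) rose by 1.41 ± 0.073, 1.76 ± 0.11 and 1.24 ± 0.059.

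**Figure D2:**
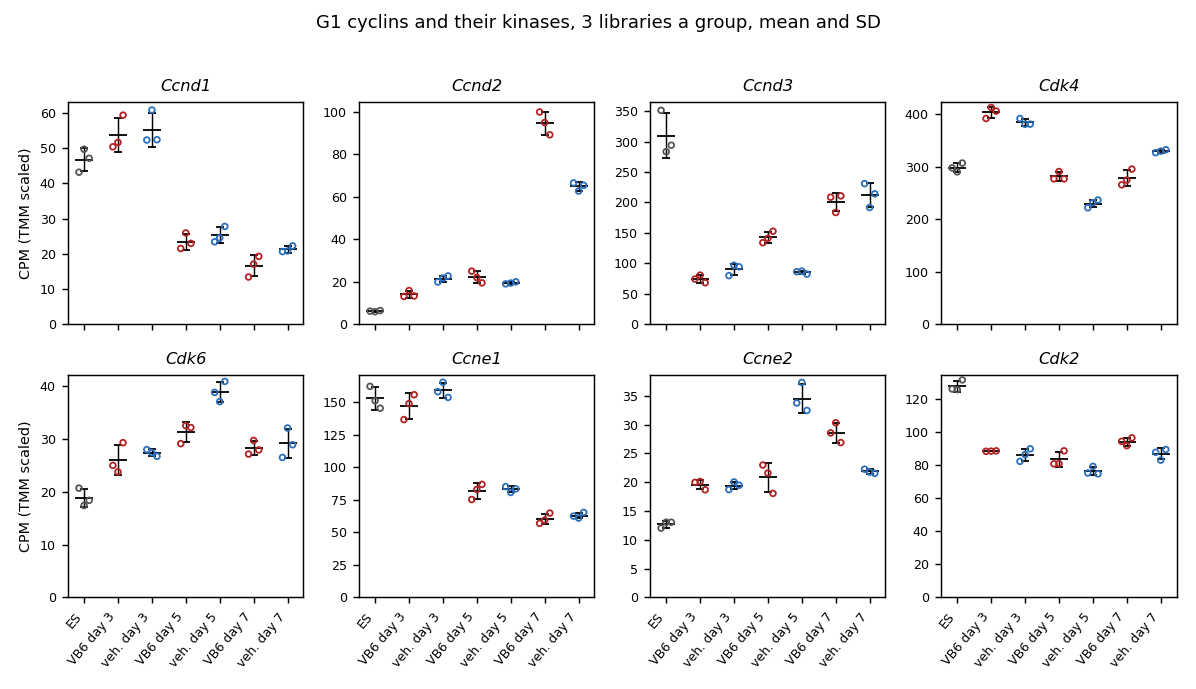
Open circles are libraries, bars the mean and SD of 3, in CPM (TMM scaled), for G1 cyclins and their kinases; ES is grey, VB6 red and vehicle blue. Ccnd3 averages 90.1 CPM with vehicle at day 3 and 309.8 CPM in ES cells, Ccnd2 is highest at day 7 and Ccne1 declines after day 3.

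Between days 3 and 7 the licensing and replication genes fell almost as a whole. In vehicle day 7 against vehicle day 3, 46 members were higher and 67 lower (67.4% of all genes were called), with a median member of -0.12 and a median gene of -0.0053. The corrected fit had 50 higher and 66 lower (72.6%), and on the log2(TPM + 1) scale the split was 55 higher and 47 lower. Of all genes called on that scale, 59.9% were higher. Of 20 licensing members, 18 fell and none rose, with a median of -0.60, and the corrected fit had 16 lower and 1 higher. By library totals 16 fell, on the TPM scale 15 fell, and neither scaling had a member higher. In all genes tested, 33.1% were called lower.

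The 6 subunits of the MCM helicase, which is loaded at origins in G1, all fell. Mcm5 (chr8:75109569-75128439, plus strand), whose upstream stretch with its E2F run is printed above, had 208, 201 and 197 CPM in the vehicle day 7 libraries, against 404, 439 and 444 CPM in the vehicle day 3 libraries. The groups were far apart, with no day 7 library near any day 3 library, and the log2 fold change was -1.09 ± 0.064 (edgeR adjusted p = 4.07e-13). Mcm2 fell by 1.17 ± 0.080, Mcm3 by 0.95 ± 0.069, Mcm6 by 0.86 ± 0.061, Mcm4 by 0.67 ± 0.043 and Mcm7 by 0.63 ± 0.064. Orc2, a subunit of the origin recognition complex, fell by 1.08 ± 0.047 and Pcna, the sliding clamp, by 0.75 ± 0.057. Cdt1, which loads the MCM ring, fell by 0.39 ± 0.082, and Cdc6, its partner, averaged 63.2 ± 2.99 CPM at day 7 and 74.2 ± 2.91 CPM at day 3 (SD, n = 3 each).

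A list of 32 further genes with peak transcription at G1/S, none of them members, gave 32 lower and none higher, with a median of -0.49. In 44 further G2/M genes, 21 were lower and 7 higher, with a median of -0.12. The difference between these lists was not tested.

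**Figure D3:**
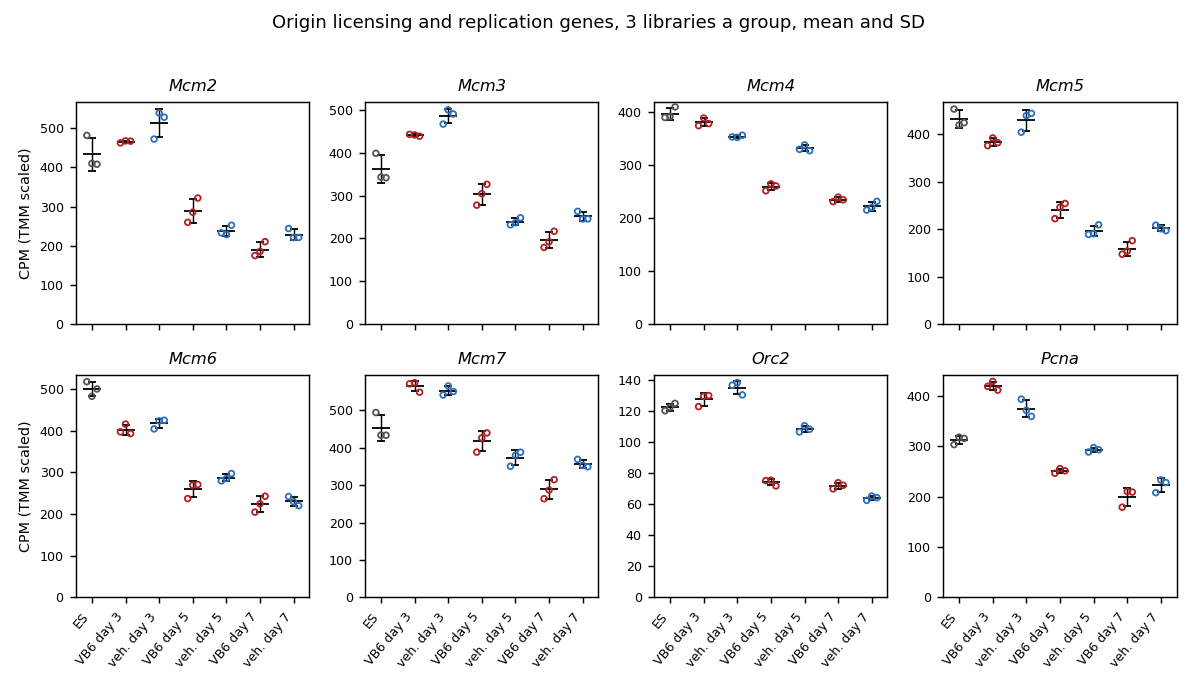
Open circles are libraries, bars the mean and SD of 3, in CPM (TMM scaled), for MCM subunits, Orc2 and Pcna; ES is grey, VB6 red and vehicle blue. All 8 genes are lower at day 7 than at day 3 in both arms, with Mcm5 at 202 CPM with vehicle at day 7 and 429 CPM at day 3.

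The TGF-beta inputs rose over this interval. All 8 members of the TGF-beta and GSK3 list rose in vehicle day 7 against vehicle day 3, in the main fit, in the corrected fit and under each scaling tried, with a main median of 1.10. Tgfb2 (chr1:186622792-186705989, minus strand), a ligand that restrains proliferation in many epithelia, had 19.8, 21.7 and 22.4 CPM in the vehicle day 7 libraries, against 0.294, 0.241 and 0.211 CPM in the vehicle day 3 libraries. The day 3 values lay just above what 3 counts give, so the size of the log2 fold change, 6.39 ± 0.24, rests on few counts. Tgfb1 had 12.4, 9.66 and 11.6 CPM in ES cells, 2.59, 3.07 and 3.11 CPM with vehicle at day 3 and 19.2, 16.0 and 18.6 CPM with vehicle at day 7. It was lowest at day 3, and the vehicle day 7 libraries all exceeded the ES libraries. Tgfb3 rose by 2.71 ± 0.36 from levels under 1 CPM, and Smad3, which carries the signal to the nucleus, by 1.48 ± 0.082. Markers of other cell types moved over the same interval. The summed TPM of 8 fibroblast markers was 114 to 161 with vehicle at day 7 and 13.1 to 14.7 at day 3, where S100a4 and Lum were at 0, and that of the 6 visceral endoderm and hepatocyte markers was 2563 to 2682 at day 7 and 26.5 to 36.6 at day 3, with Alb at 0 on both days. Their part in these results was not tested.

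Of the 5 CDK inhibitors, 3 rose and none fell over the same interval. Cdkn2b, which TGF-beta is known to induce in epithelial cells, had 8.58, 5.72 and 7.50 CPM at day 7 and 2.06, 2.89 and 2.32 CPM at day 3, without overlap. Its log2 fold change was 1.59 ± 0.21 (edgeR adjusted p = 5.31e-07). Cdkn2a and Cdkn2d rose by 0.93 ± 0.14 and 0.64 ± 0.11, and Cdkn2c did not pass. Cdkn1b, an inhibitor of CDK2, differed by -0.0037 ± 0.060 and did not pass, but was called higher at 0.25 on the log2(TPM + 1) scale.

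The G1 cyclins went both ways over the same interval. Ccnd2 had 66.4, 62.6 and 65.3 CPM in the vehicle day 7 libraries, against 19.8, 21.6 and 22.6 CPM in the vehicle day 3 libraries, and rose by 1.60 ± 0.083. Ccnd3 also rose, by 1.24 ± 0.089, while Ccnd1 fell to 20.6, 20.8 and 22.2 CPM in the vehicle day 7 libraries, against 52.3, 60.9 and 52.4 CPM in the vehicle day 3 libraries. Ccne1, not called against ES cells at day 3, fell by 1.34 ± 0.065 (edgeR adjusted p = 1.15e-14). Per unit of length the day 7 order was Ccnd3 at 175 ± 19.3 TPM, Ccnd2 at 17.1 ± 0.459 TPM and Ccnd1 at 8.16 ± 0.311 TPM, so Ccnd1 and Ccnd2 had exchanged ranks since the ES state. Cdk4 fell by 0.22 ± 0.046, a call that was lost on the log2(TPM + 1) scale, and Ccne2, at 0.17 ± 0.085, passed only in the corrected fit (0.37) and by library totals (0.22). E2f1, E2f4 and the E2F partner Tfdp2 fell by 0.88 ± 0.090, 0.61 ± 0.083 and 1.30 ± 0.053, and Rb1 rose by 0.65 ± 0.10.

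The DNA damage checkpoint list went both ways, with 4 of 11 members higher, 6 lower and 1 not called, and 3 higher and 5 lower in the corrected fit. Sfn (chr4:133600556-133602168, minus strand), the 14-3-3 protein that holds CDK1 in the cytoplasm, had 55.7, 56.4 and 57.5 CPM in the vehicle day 7 libraries, against 10.5, 9.93 and 10.8 CPM in the vehicle day 3 libraries. Gadd45b had 95.9, 92.0 and 105 CPM at day 7 and 15.2, 13.6 and 13.5 CPM at day 3. Both rose without overlap between libraries, by 2.44 ± 0.11 and 2.79 ± 0.14, and Gadd45g rose by 1.17 ± 0.13. Chek2, a kinase downstream of Atm, fell by 1.24 ± 0.074, Trp53 by 0.83 ± 0.093 and Chek1 by 0.60 ± 0.067. Atm, Atr and Prkdc, kinases that signal DNA damage, fell by 1.08 ± 0.07, 0.44 ± 0.067 and 0.40 ± 0.08, and the kinase Abl1 rose by 0.22 ± 0.094. The calls of Atr and Abl1 were lost in the corrected fit, and Gadd45a did not pass in either.

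**Figure D4:**
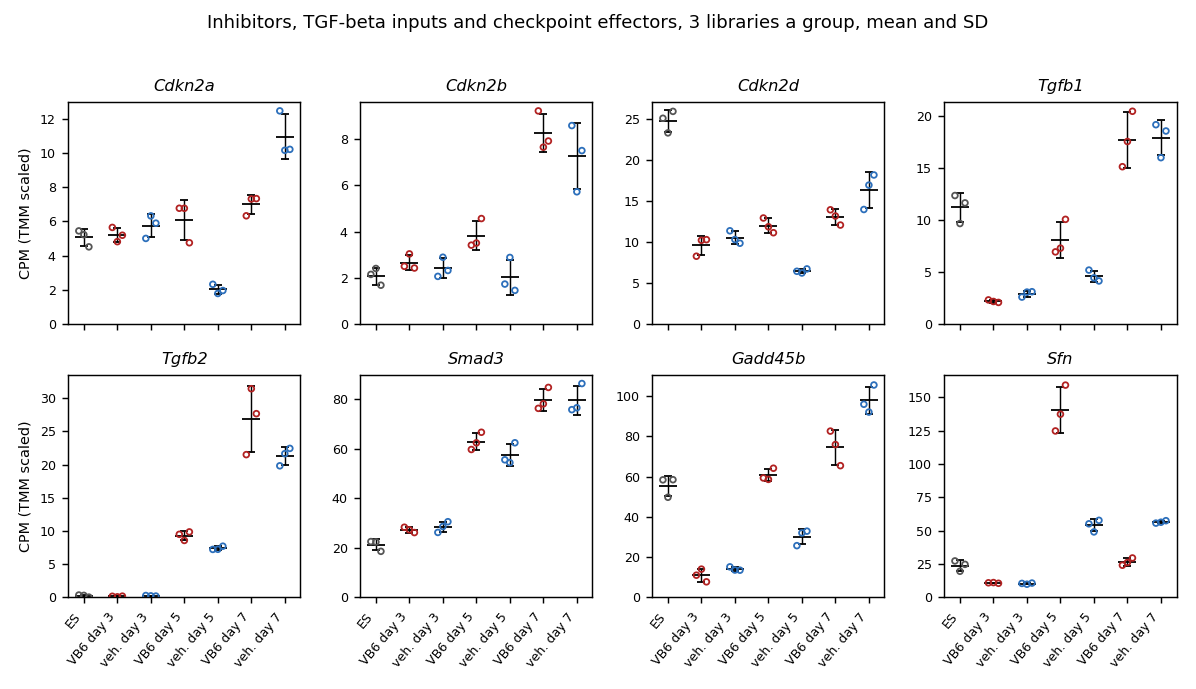
Open circles are libraries, bars the mean and SD of 3, in CPM (TMM scaled), for CDK inhibitors, TGF-beta inputs, Gadd45b and Sfn; ES is grey, VB6 red and vehicle blue. Tgfb2 is at or under 0.366 CPM in every library up to day 3, and Sfn is highest with VB6 at day 5, at 140.4 CPM.

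Mitotic lists showed no common direction from day 3 to day 7. Of 18 tested G2 and mitotic entry members, 6 rose and 6 fell, and of 17 APC/C members 6 rose and 5 fell. Cdk1 averaged 195 ± 11.8 CPM at day 7 and 174 ± 7.74 CPM at day 3, and Plk1, a mitotic kinase, 188 ± 11.6 and 186 ± 10.8 CPM (SD, n = 3 each). Ccnb1 fell by 0.36 ± 0.051 and Wee1, the kinase that restrains CDK1, rose by 0.19 ± 0.058. Ccna2 did not pass, at 188 ± 10.3 CPM at day 7 and 198 ± 0.962 CPM at day 3. The APC/C subunit Cdc16 rose by 0.73 ± 0.051, and Fbxo5, which inhibits the complex in S phase and G2, fell by 0.80 ± 0.055. Of 12 spindle checkpoint members 7 fell and 4 rose, with the checkpoint ATPase Trip13 lower by 0.80 ± 0.067 and Bub1b by 0.50 ± 0.045. Of 28 cohesin, separase and exit members 14 fell and 8 rose: Esco2, which acetylates cohesin in S phase, fell by 1.01 ± 0.096, and the cohesin ring subunit Smc3 by 0.45 ± 0.047. Atrx and Ddx11, the members in no list, fell by 0.67 ± 0.070 and 1.03 ± 0.069.

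The licensing genes also fell in the VB6 arm between days 3 and 5, in groups without short fragments. In VB6 day 5 against VB6 day 3, 33 members were higher and 67 lower (56.2% of all genes were called), with a median member of -0.14 and a median gene of 0.018. The corrected fit had 34 higher and 63 lower (60.0%), and on the log2(TPM + 1) scale the split was 42 higher and 37 lower. Of all genes called on that scale, 67.5% were higher. Of the 20 licensing members 19 fell and none rose, with a median of -0.42, and the corrected fit had 17 lower and 1 higher. Mcm5 had 222, 246 and 254 CPM in the VB6 day 5 libraries, against 376, 392 and 382 CPM in the VB6 day 3 libraries, and fell by 0.67 ± 0.064 (edgeR adjusted p = 4.48e-09). Mcm2, Mcm3, Mcm4, Mcm6 and Mcm7 fell by 0.43 to 0.69, Pcna by 0.74 ± 0.057 and Orc2 by 0.78 ± 0.047. Cdt1 did not pass in the main fit, and the corrected fit had it at -0.36 ± 0.043 (adjusted p = 6.49e-08).

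TGF-beta inputs and D-type cyclins changed as well in the VB6 arm. Of the 8 TGF-beta and GSK3 members 7 rose and none fell, with 6 higher and 1 lower in the corrected fit: Tgfb2 had 9.51, 8.59 and 9.87 CPM in the VB6 day 5 libraries, against 0.178, 0.0963 and 0.198 CPM in the VB6 day 3 libraries, and Tgfb1, Tgfb3 and Smad3 rose by 1.88 ± 0.17, 1.36 ± 0.36 and 1.21 ± 0.082. Ccnd1 and Ccne1 fell by 1.20 ± 0.10 and 0.85 ± 0.064, Ccnd2 and Ccnd3 rose by 0.66 ± 0.090 and 0.94 ± 0.090, and Cdk4 fell by 0.52 ± 0.046. Sfn had 125, 137 and 159 CPM with VB6 at day 5, against 11.0, 11.2 and 10.6 CPM with VB6 at day 3. That rise of 3.68 ± 0.11 (edgeR adjusted p = 9.98e-18) put VB6 day 5 above all other groups for Sfn, without overlap. Gadd45b rose by 2.47 ± 0.14, whereas Gadd45g did not pass. Fbxo5, Trip13 and Tfdp2 fell by 0.59 ± 0.054, 0.61 ± 0.066 and 0.72 ± 0.052. All 32 further G1/S genes fell here too, with a median of -0.46. The fibroblast markers summed to 21.2 to 30.3 TPM with VB6 at day 5 and 18.2 to 21.4 TPM at day 3, where Col3a1, S100a4, Postn and Lum were at 0, and the endoderm and hepatocyte markers to 879 to 1020.4 and 39.5 to 48.8 TPM, with Alb at 0 on both days.

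Day 3 was the only day with no short-fragment libraries in the comparison of VB6 with vehicle. In the main and corrected fits, members were called there about as often as all genes. In VB6 day 3 against vehicle day 3, 2 of 144 members were higher and 4 lower, and 4.26% of all genes were called; the corrected fit had 3 higher and 6 lower (7.09%). DESeq2 called 14 members, edgeR on the compared groups alone 18 and limma on log2(TPM + 1) 3. Over all genes tested limma called 277. No such number is given for DESeq2 or the compared groups alone, so their counts cannot be set against all genes. The edgeR count was 2 without vehicle day 3 replicate 2 or without VB6 day 3 replicate 1, 3 without replicate 3 of either group and 9 without vehicle day 3 replicate 1. Ccnd2 had 13.0, 15.7 and 13.2 CPM in the VB6 day 3 libraries, against 19.8, 21.6 and 22.6 CPM in the vehicle day 3 libraries. The groups did not overlap, and Ccnd2 fell by 0.61 ± 0.091 (edgeR adjusted p = 0.000454; corrected -0.55 ± 0.094, adjusted p = 0.000596). Its call held without each library in turn and was lost on the log2(TPM + 1) scale (limma adjusted p = 0.062).

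Pttg1, which encodes securin, had 79.1, 76.9 and 76.5 CPM in the VB6 day 3 libraries, against 64.8, 54.7 and 57.4 CPM in the vehicle day 3 libraries. It rose by 0.39 ± 0.073 (edgeR adjusted p = 0.00328), also without overlap. Gadd45a, a stress-induced growth arrest gene, fell by 0.39 ± 0.082, but its adjusted p was 0.079 without vehicle day 3 replicate 2 and 0.0541 without VB6 day 3 replicate 1. Fzr1, the APC/C activator of late mitosis and G1, was lower by 0.31 ± 0.078 and lost its call in the corrected fit (adjusted p = 0.076) and when any 1 library of the comparison other than vehicle day 3 replicate 1 was left out. Ticrr, an origin firing factor, was lower by 0.25 ± 0.060, with adjusted p-values of 0.0669 to 0.117 without VB6 day 3 replicate 1 or 3 or vehicle day 3 replicate 2 or 3. Rbl1 was higher by 0.27 ± 0.075, with 0.0756 to 0.21 when any 1 library of the comparison other than vehicle day 3 replicate 1 was left out. On the log2(TPM + 1) scale Fzr1, Ticrr and Rbl1 did not pass limma's test. Cdkn2c, at 0.654, 0.915 and 0.939 CPM with VB6 and 1.12, 2.23 and 1.63 CPM with vehicle at day 3, did not pass. The licensing list had a median of 0.031, with 1 of 20 members lower, and none of 12 spindle members was called.

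At days 5 and 7 the VB6 differences of the members tracked their base composition. In VB6 day 5 against vehicle day 5, 51 members were higher and 70 lower (56.7% of all genes were called); the corrected fit had 59 higher and 27 lower (42.9%), and the log2(TPM + 1) scale 19 higher and 87 lower. In VB6 day 7 against vehicle day 7, 51 were higher and 32 lower (36.5%), with 14 higher and 34 lower in the corrected fit (27.3%). The log2(TPM + 1) scale had 91 higher and 8 lower. Of all genes called on that scale, 31.1% were higher at day 5 and 82.9% at day 7. In the corrected fit, 70.4% of all genes called were higher at day 5 and 38.6% at day 7. Across the 144 members, Pearson's correlation of the log2 difference with GC content was 0.829 at day 5 and -0.703 at day 7. With log2 length it was -0.52 and 0.595. In the corrected fit the GC values were 0.027 and -0.033. That fit takes out the trend with GC content, so small values there follow from the method and are no separate evidence. Members share their libraries, so these correlations describe the libraries and carry no p. The day 5 and day 7 differences had opposite signs in 126 members, and in 102 in the corrected fit. Of 121 members called at day 5, 55 kept call and direction in the corrected fit and 20 were called in the opposite direction. At day 7, 24 of 83 kept both and 3 were opposite. Opposite signs and kept or reversed calls were not counted over all genes, so they cannot be read as particular to the members. The visceral endoderm and hepatocyte markers summed to 879 to 1020.4 TPM with VB6 and 507 to 650.1 TPM with vehicle at day 5, and to 3018 to 3940.3 and 2563 to 2682 TPM at day 7. Pluripotency markers summed to 1368 to 1497 and 1101 to 1162 TPM at day 5 and to 480.0 to 549 and 719 to 732 TPM at day 7. TPM moved for genes in general too. On the log2(TPM + 1) scale the median gene tested differed by -0.13 at day 5 and 0.19 at day 7. The part of the marker shifts in the members' differences was not tested. The VB6 effect differed between days in 126 members (60.0% of all genes), and in 87 in the corrected fit (48.0%), by the F test of edgeR's quasi-likelihood fit.

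**Figure D5:**
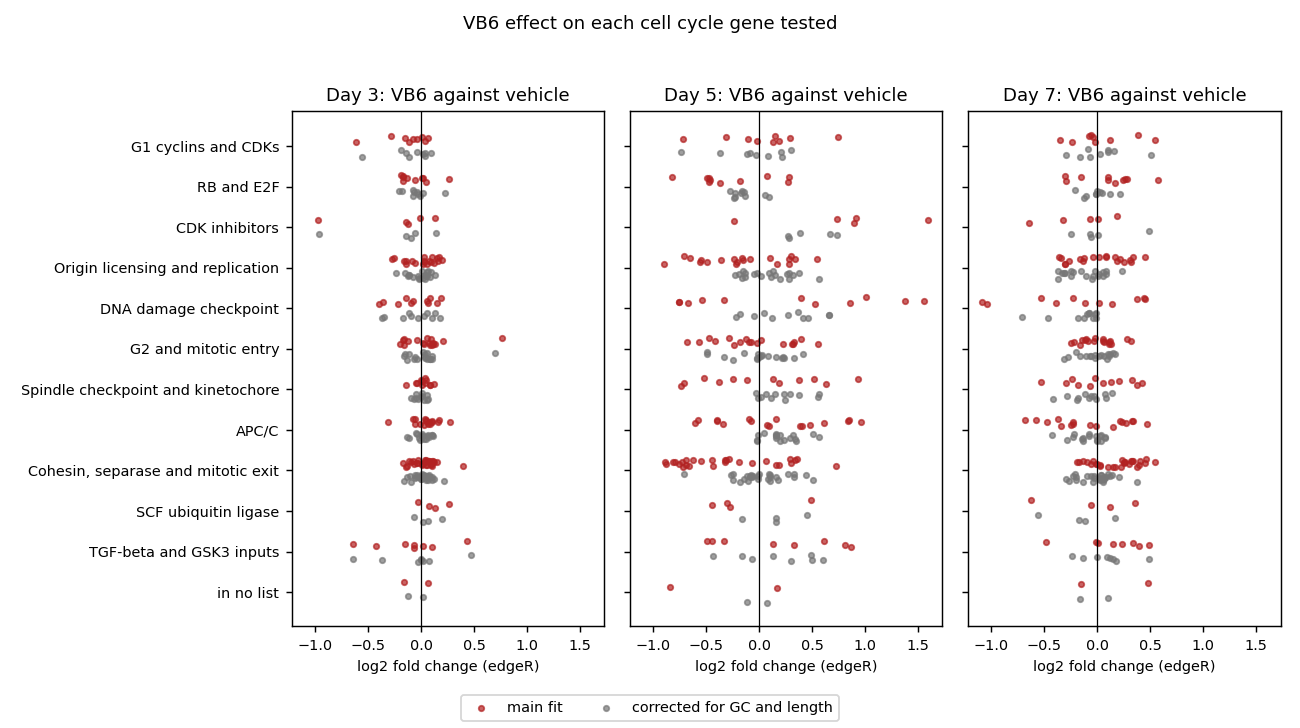
Each point is the edgeR log2 fold change of 1 of the 144 members tested, VB6 against vehicle, by role list; red is the main fit and grey the fit corrected for GC content and length. The spread is narrow at day 3 in both fits and wider at days 5 and 7, where 121 and 83 members were called in the main fit and 86 and 48 in the corrected one.

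Mcm4 and Bub1 show how far the fits part. Mcm4 had 252, 265 and 261 CPM in the VB6 day 5 libraries, against 329.7, 338 and 327 CPM in the vehicle day 5 libraries, a difference of -0.36 ± 0.043 that turned to 0.32 ± 0.049 in the corrected fit. At day 7 it was not called in the main fit (0.081 ± 0.043), was lower in the corrected fit (-0.25 ± 0.049) and higher on the log2(TPM + 1) scale (0.36). Bub1, a spindle checkpoint kinase, differed by -0.70 ± 0.056 at day 5 and 0.37 ± 0.057 at day 7, with corrected values of 0.11 ± 0.055 and -0.011 ± 0.056 that did not pass. Rb1 differed by -0.82 ± 0.096 at day 5 and was not called there in the corrected fit (-0.14 ± 0.079, adjusted p = 0.167), and differed by 0.57 ± 0.096 at day 7 (corrected 0.22 ± 0.078).

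Some members were called in the same direction by both fits. Cdc20, the APC/C activator that the spindle checkpoint holds back, had 281, 283 and 314 CPM in the VB6 day 5 libraries, against 158, 156 and 174 CPM in the vehicle day 5 libraries. At day 7 it had 183, 181 and 178 CPM in the VB6 libraries, against 280.5, 275 and 256 CPM in the vehicle libraries. Neither pair of groups overlapped, and the short-fragment group was the low one on both days: the difference was 0.85 ± 0.057 at day 5 (corrected 0.51 ± 0.041) and -0.58 ± 0.057 at day 7 (corrected -0.43 ± 0.041).

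Sfn and Gadd45g showed the same pattern of a low short-fragment group. Sfn had 125, 137 and 159 CPM in the VB6 day 5 libraries, against 55.2, 49.1 and 57.8 CPM in the vehicle day 5 libraries, and 24.2, 26.2 and 29.6 CPM in the VB6 day 7 libraries, against 55.7, 56.4 and 57.5 CPM in the vehicle day 7 libraries. It differed by 1.38 ± 0.095 at day 5 (corrected 0.66 ± 0.072) and -1.08 ± 0.10 at day 7 (corrected -0.71 ± 0.079). Gadd45g differed by 1.56 ± 0.16 at day 5 (corrected 0.66 ± 0.17) and -1.04 ± 0.13 at day 7 (corrected -0.46 ± 0.13). Ccna2 went the other way, at -0.68 ± 0.051 and 0.32 ± 0.051, with corrected values of -0.33 ± 0.041 and 0.11 ± 0.041. Whether short fragments had a part in these differences beyond the trend removed was not tested.

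Ccnd2, lower with VB6 at day 3, was higher with VB6 at day 7. It had 99.8, 94.8 and 89.0 CPM in the VB6 day 7 libraries, against 66.4, 62.6 and 65.3 CPM in the vehicle day 7 libraries. All VB6 libraries exceeded all vehicle libraries, by 0.55 ± 0.077 (edgeR adjusted p = 7.35e-06; corrected 0.50 ± 0.075, adjusted p = 1.53e-05). At day 5 it did not pass, at 0.19 ± 0.088, but passed without VB6 day 5 replicate 3 (0.27, adjusted p = 0.0141). Ccnd3 was higher with VB6 at day 5, by 0.74 ± 0.090 (corrected 0.20 ± 0.058), and differed by -0.079 ± 0.087 at day 7 (corrected 0.16 ± 0.055).

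Among the remaining members called at day 7, Mcm3 and Mcm5 were lower with VB6 by 0.36 ± 0.069 and 0.35 ± 0.065 (corrected -0.37 ± 0.054 and -0.32 ± 0.050), and Mcm3 was higher at day 5 by 0.34 ± 0.069 (corrected 0.26 ± 0.053). These 3 calls were lost on the log2(TPM + 1) scale. Rbx1, the RING subunit of SCF, was lower at day 7 by 0.62 ± 0.090 (corrected -0.56 ± 0.070), and its call was also lost on that scale. Counts of genes with near-identical copies, such as Rbx1, are uncertain, since reads could be split between copies. Cdkn2a differed by 1.59 ± 0.17 at day 5 (corrected 0.73 ± 0.18) and by -0.65 ± 0.14 at day 7, where the corrected value of -0.055 ± 0.14 did not pass.

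The short-fragment group entered both vehicle steps around day 5, and the counts there turned with the correction. In vehicle day 5 against vehicle day 3, 64 members were higher and 61 lower (65.3% of all genes were called), with 36 and 82 in the corrected fit (65.8%) and 84 and 21 on the log2(TPM + 1) scale. In vehicle day 7 against vehicle day 5, 50 were higher and 65 lower (66.3%), with 67 and 39 corrected (62.5%). The log2(TPM + 1) scale had 26 higher and 81 lower. Of all genes called on that scale, 71.3% were higher in the first step and 37.9% in the second. In the corrected fit, 46.2% of all genes called were higher in the first step and 61.4% in the second. The licensing list had 12 lower and 5 higher in the first step, with 16 lower and 2 higher corrected. In the second it had 12 lower and 3 higher, with 7 lower and 6 higher corrected.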

How the data were processed

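RNA-seq of 21 libraries in 7 groups of 3 was analysed. The labels describe total RNA extracted with TRIzol and also mention enrichment for small RNAs, so the library type is not settled here. The authors deposited estimated counts, FPKM and TPM per gene, as the files' names and values show, and the submitters' processing notes name mm10; the aligner, counter, gene annotation and start of differentiation were not given in the sources used here. Between 26.9 and 30.5% of deposited count values above 0 were not whole, and rounding them changed the total by 0.000245%. TPM served as levels per length, and FPKM with counts gave the fragment length over 578 genes.

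Members and role lists were chosen with earlier results of these data known. Rounded counts were fitted over all libraries with edgeR 4.0.16 (R 4.3.3; TMM, filterByExpr, quasi-likelihood test, Benjamini-Hochberg adjustment over 18901 genes, calls at adjusted p under 0.05). SE is the log2 fold change divided by the root of F. An F test compared the VB6 effect between days. A corrected fit removed each library's trend over GC content and length and covered 16790 genes (88.8%) and all 144 tested members. Gene positions come from GENCODE M21 (mm10). Procedures were tested on simulated data. Alternatives were DESeq2 1.42.0 and its size factors, library totals, limma 3.58.1 on log2(TPM + 1) of the deposited TPM, no and stricter filters, the compared groups alone, a replicate block, and leaving out each library. Members named are a set of textbook regulators, the 5 highest and 5 lowest called members per comparison without overlap of libraries, and up to 2 of smallest p per list, and the text gives a part of these.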

Additional observations from a re-analysis of the deposited data

Results flagged for a closer look

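The effect of VB6 differed between days 3, 5 and 7 in 126 of 144 members by edgeR's quasi-likelihood F test with Benjamini-Hochberg adjustment, against 60.0% of all genes tested. In the corrected fit the number was 87, against 48.0%. Short-fragment libraries are the vehicle ones at day 5 and the VB6 ones at day 7, so a difference between days cannot be told apart from fragment length in this design.

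Named members with such a difference include Sfn (adjusted p = 6.84e-12), Cdc20 (6.12e-12), Ccna2 (1.47e-10), Bub1 (3.43e-10) and Gadd45g (1.56e-09). Sfn, Cdc20 and Gadd45g were higher with VB6 at day 5 and lower at day 7, and Ccna2 and Bub1 were lower at day 5 and higher at day 7 in the main fit. In the corrected fit the adjusted p was 6.61e-10 for Sfn, 1.23e-11 for Cdc20, 4.72e-07 for Ccna2, 0.319 for Bub1 and 0.00053 for Gadd45g.

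The G1 regulators Ccnd2 (adjusted p = 6.5e-08), Ccnd3 (5.17e-07), Rb1 (2.88e-08) and Cdkn2a (2.7e-08) were also found by this test. Ccnd2 averaged 14.0, 22.0 and 94.5 CPM with VB6 at days 3, 5 and 7, against 21.3, 19.4 and 64.7 CPM with vehicle. Its corrected adjusted p was 4.09e-07. The remaining named members were Mcm3 (4.96e-06), Mcm4 (4.46e-07), Mcm5 (5.44e-06) and Rbx1 (1.71e-07). Their corrected values were 8.54e-07, 9.8e-07, 3.99e-05 and 2.11e-08, in the same order.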

How the results depend on the processing

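For VB6 day 3 against vehicle day 3, 6 members were called. There limma on log2(TPM + 1) called 3, DESeq2 14 and the compared groups alone 18, and leaving out 1 library gave 2 to 9. No number over all genes is given for DESeq2 or the compared groups alone. For VB6 day 7 against vehicle day 7, with 83 called, the GC and length correction gave 48, and 47 with a replicate block. No other count of these comparisons moved by over 1.5 times under the alternatives run. These counts ignore direction, so a reversal does not show in them. The corrected fit called 20 members in the opposite direction for VB6 against vehicle at day 5. It did so for 18 in vehicle day 5 against day 3 and 14 in vehicle day 7 against day 5. Such reversals were not counted over all genes. Leaving out 1 library gave 111 to 118 for VB6 against vehicle at day 5, 71 to 76 at day 7, 102 to 107 for vehicle day 3 against ES, 109 to 113 for vehicle day 7 against day 3, 121 to 122 for vehicle day 5 against day 3, 108 to 112 for vehicle day 7 against day 5, 91 to 96 for VB6 day 5 against day 3 and 119 to 126 for the difference between days.

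Of 2144 alternative values of 134 gene and comparison pairs, 2092 kept direction and call and 11 turned. These pairs were picked for reporting and do not stand for all members. In the corrected fit 124 of the 134 kept both. Over all members called for VB6 against vehicle, that fit kept both in 55 of 121 at day 5 and 24 of 83 at day 7. Mcm4 turned to 0.32 at VB6 day 5 and to -0.25 at VB6 day 7 in the corrected fit, Bub1 to 0.11 and -0.011, and Ccnd3 at day 7 to 0.16, with the replicate block or without it. Cdkn1b turned to 0.25 on the TPM scale in vehicle day 7 against day 3. The cause was not tested. Medians of all genes shifted on that scale to -0.13 and 0.19 for VB6 against vehicle at days 5 and 7. They shifted there to 0.24 for vehicle day 5 against day 3 and -0.13 for vehicle day 7 against day 5. For vehicle day 7 against day 3 the median was 0.095, and for VB6 day 5 against day 3 it was 0.12. In the corrected fit it was 0.10 for vehicle day 7 against day 5 and 0.096 for VB6 against vehicle at day 5. That fit also had 0.0528 for vehicle day 7 against day 3 and 0.0525 for VB6 day 5 against day 3.

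Same-numbered libraries did not deviate together (correlations of -0.219 to 0.112), and the main fit used no pairing. With 3 libraries per group, such correlations cannot show whether the numbers mark paired cultures, and the labels do not say. With a replicate block 6 members were called for VB6 against vehicle at day 3, 121 at day 5 and 79 at day 7, and Rbl1 at day 3 had an adjusted p of 0.0604. Precision is set by 3 libraries per group, and members near the count floor, such as Tgfb2 before day 5, rest on few counts.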
